A study of Bos taurus with 6 samples.

Results

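The miRNA family of miR-15, miR-16, miR-195 and miR-497 was followed in small RNA libraries of intramuscular fat (IMF) from steers and bulls. Members were taken by name from the table of miRNA counts: bta-miR-15a, miR-15b, miR-16a, miR-16b, miR-195, miR-424 and miR-497, with or without an arm suffix. This gave 8 of the 8800 sequences in the table and 8 of its 793 known bovine miRNAs, and all 8 passed the filter on low counts that left 1073 sequences for testing. The steers were Chinese Qinchuan males weaned at 3 months and castrated surgically at 6 months, and the bulls were intact males of the same breed, weaning age and feeding, all with a shared sire. Slaughter was at 24 months, and IMF was taken from the sternomandibularis, a neck muscle. There were 2 small RNA libraries per group, with total counts of 10452582 and 8859844 in steers and 7784227 and 6556511 in bulls. RNA of 3 animals was pooled in each library according to the methods, whereas the sample labels give 1, and p-values measure only the spread between these libraries. The mRNA counts came from 1 pooled library per group, of 6 animals by the methods and 3 by the labels, with 12677375 counts in steers against 9868415 in bulls.

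A miRNA guides the Argonaute protein to messenger RNAs, mostly through pairing of its seed, the bases near its 5′ end, and lowers the stability and translation of those messengers. Members of the miR-15/16 family share a seed and are best known as brakes on the cell cycle and on survival genes, with cyclins, CDK6, CHEK1, WEE1 and BCL2 among their reported targets. They come from separate places in the genome. In the RefSeq gene table for the ARS-UCD2.0 assembly, the genes of miR-15a and miR-16a are direct neighbours, as are those of miR-15b and miR-16b, those of miR-195 and miR-497, and those of miR-424 and miR-503. The pair of miR-15b and miR-16b lies inside SMC4, a gene for a condensin subunit that helps to pack chromosomes.

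The mature sequences are shown because the seed defines the family and because the 3′ parts show which members can be told apart by their reads. They are written 5′ to 3′ as DNA letters, and capitals mark bases 2 to 8.
miR-15a: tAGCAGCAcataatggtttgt
miR-15b: tAGCAGCAcatcatggtttaca
miR-16a: tAGCAGCAcgtaaatattggtg
miR-16b: tAGCAGCAcgtaaatattggc
miR-195: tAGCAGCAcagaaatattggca
miR-497: cAGCAGCAcactgtggtttgta
miR-424-5p: cAGCAGCAattcatgttttga
miR-424-3p: cAAAACGTgaggcgctgctat

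The label of a seed family held for 7 of the 8 members. MiR-424-3p, the other arm of the miR-424 hairpin, has the seed AAAACGT and belongs to the list by name only. Among the 766 known bovine mature sequences available, the seed AGCAGCA stood at bases 2 to 8 in 7, and these were the 7 members named above. It stood at bases 1 to 7 in another 2, miR-103 and miR-107, and its first 6 bases were found with a different last base in miR-503-5p and miR-6519. Beyond the seed, miR-16a and miR-16b were identical over their first 20 bases and differed by T21C, counted from the 5′ end with the base of miR-16a first. MiR-195 differed from miR-16b at G10A and T11G over the 21 bases compared, with the base of miR-16b first. MiR-15a and miR-15b differed at A12C, G20A and T21C, and miR-15a and miR-497 shared a run of 8 bases after the seed. At the other end, miR-424-5p and miR-195 were identical at 11 of 21 bases, as were miR-16b and miR-497. Reads of miR-16a and miR-16b that end before base 21 match both, and how such reads were assigned is not given in the sources used here, so the split between these 2 members is uncertain.

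The family was a moderately abundant one in IMF, and 5 members carried nearly all of it. Levels are given as TMM-normalized CPM, counts scaled to a common library total after a factor from the trimmed mean of M-values corrects for composition. The mature sequences are 21 or 22 bases long, so members were compared without a length correction. MiR-16a ranked 55th, miR-195 58th, miR-497 60th, miR-16b 64th and miR-15a 75th among the 396 known bovine miRNAs that were tested. MiR-15b ranked 186th, miR-424-5p 229th and miR-424-3p 339th. The mean over the 4 libraries was 1685 CPM for miR-16a, 1417 for miR-195, 1111 for miR-497, 977 for miR-16b and 642 for miR-15a. It was 26.2 CPM for miR-15b, 10.5 for miR-424-5p and 2.04 for miR-424-3p. In this order miR-16a, miR-195 and miR-497 were not separated from the next member, each lying above it in only 3 of 4 libraries. MiR-16b was above miR-15a in 4 of 4 libraries, although their ranges overlapped, and the gap from miR-15a to miR-15b was 24.5-fold with ranges that did not meet.

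**Figure D1:**
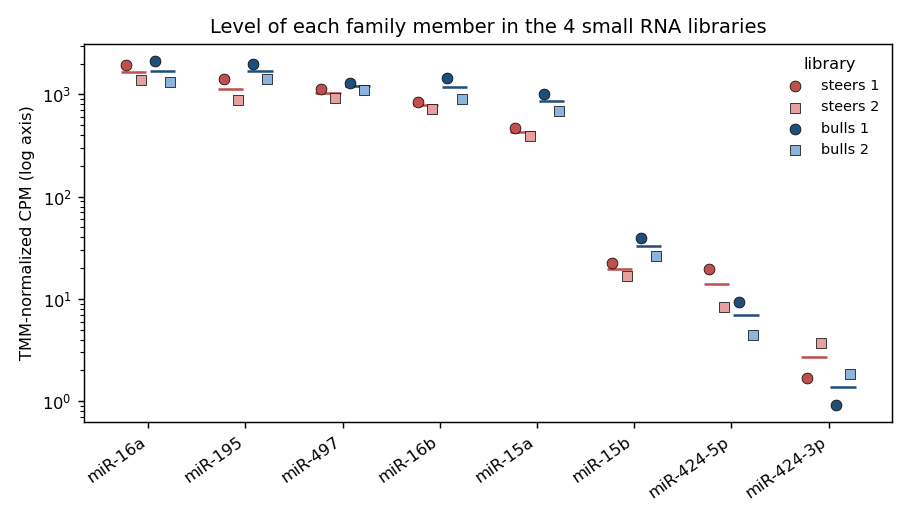
Points give the TMM-normalized CPM of each member in each library on a log axis, and short lines give the mean of the 2 libraries of a group. The 5 members on the left lie between 394 and 2115 CPM, whereas the 3 on the right stay under 40.

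Whether castration changed these levels was asked with the quasi-likelihood test of edgeR, fitted to all sequences at once. A sequence was called where its Benjamini-Hochberg adjusted p was under 0.05 and its log2 fold change, steers against bulls, was beyond 1 in size. By this rule 0 of the 8 members were called, where 14.2% of all tested sequences were (7.08% upregulated and 7.08% downregulated in steers). Of known bovine miRNAs 12.6% were called, 5.05% upregulated and 7.58% downregulated. MiR-15a and miR-424-5p had an unadjusted p under 0.05, and DESeq2 and limma-voom also called 0 members. With 2 libraries per group a missed threshold does not show equal levels, and the standard error (SE) of the log2 fold change was between 0.48 and 0.62 for the 8 members. In simulated counts the same rule called only 4 of 187 sequences changed 2-fold, so changes of that size were mostly missed. Their median log2 fold change was -0.39, against -0.15 for known bovine miRNAs and -0.07 for all sequences tested. Values below 0 were found for 6 of the 8 members, for 58.1% of known bovine miRNAs and for 53.2% of all sequences. Levels in whole tissue cannot tell fewer cells of a type apart from less RNA per cell.

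MiR-15a, which is paired in the genome with miR-16a, had the largest negative value of the family. It stood at 466 and 394 CPM in steers and at 1017 and 690 in bulls. Both libraries of bulls lay above both of steers, and its log2 fold change was -0.99 (edgeR, SE 0.50, adjusted p = 0.179). Without the first library of bulls it was -0.49, and with any 1 of the 4 libraries left out it lay between -1.28 and -0.49. MiR-15b, its close relative in sequence, was at 22.3 and 16.7 CPM in steers and at 39.4 and 26.3 in bulls. Again the groups did not overlap, and the log2 fold change was -0.75 (edgeR, SE 0.49, adjusted p = 0.309). That value shrank to -0.24 without the first library of bulls and otherwise reached -1.05 with 1 library left out.

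MiR-16a, the member with the highest mean level, was at 1923 and 1393 CPM in steers and at 2115 and 1308 in bulls. Its groups overlapped fully, and its log2 fold change of -0.05 (edgeR, SE 0.48, adjusted p = 0.965) turned positive with some other scalings and with 2 of the 4 libraries left out in turn. MiR-16b was at 844 and 723 CPM in steers and at 1440 and 902 in bulls, without overlap, for a log2 fold change of -0.58 (edgeR, SE 0.49, adjusted p = 0.449). Nothing of it remained without the first library of bulls (-0.013), and without the second it was -0.91. Since these 2 share their first 20 bases, their counts were also added up. The sum had a log2 fold change of -0.25 (edgeR, SE 0.48, adjusted p = 0.766), from 2767 and 2117 CPM in steers and 3555 and 2210 in bulls.

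MiR-195 and miR-497 are transcribed side by side. MiR-195 was at 1410 and 872 CPM in steers and at 1966 and 1418 in bulls, and the lower library of bulls was only just above the higher one of steers. Its log2 fold change was -0.57 (edgeR, SE 0.49, adjusted p = 0.455), but -0.12 without the first library of bulls, -0.23 without the second of steers and -0.91 without the first of steers. MiR-497 was at 1119 and 933 CPM in steers and at 1299 and 1093 in bulls, so its groups overlapped, and the log2 fold change was -0.22 (edgeR, SE 0.49, adjusted p = 0.796). This value became 0.10 without the first library of bulls.

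Both arms of miR-424, a hairpin of the X-linked cluster that is known for responses to hypoxia and differentiation, had values on the other side of 0. MiR-424-5p was at 19.8 and 8.41 CPM in steers and at 9.39 and 4.40 in bulls, from 154 and 72 counts against 71 and 41. The first library of bulls lay above the second of steers. The log2 fold change was 1.03 (edgeR, SE 0.53, adjusted p = 0.180), and without the first library of bulls it was 1.87 (edgeR, adjusted p = 0.0287), which was then a call. Without the first library of steers it was 0.33. MiR-424-3p had 13 and 32 counts in steers, against 7 and 17 in bulls, with the log2 fold change at 0.96 (edgeR, SE 0.62, adjusted p = 0.303). It ranged from 0.31 without the second library of steers to 1.499 without the second of bulls.

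Bulls lay above steers without overlap for miR-15a, miR-15b, miR-16b and miR-195, which is 4 of 8 members. Over all known bovine miRNAs tested that share was 35.4%, with steers above bulls in another 24% and no overlap in either direction in 59.3%. Over all sequences these shares were 31.5%, 26.7% and 58.2%. Non-overlap of 2 libraries against 2 was therefore common in these data.

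**Figure D2:**
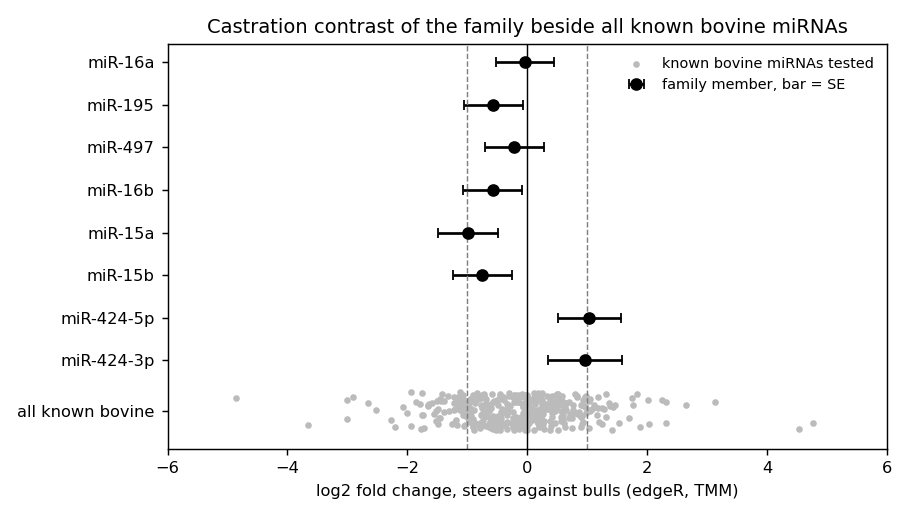
Black points give the log2 fold change of each member, steers against bulls, with bars of 1 SE, and grey points the 396 known bovine miRNAs tested, spread vertically for display only. Dashed lines mark a log2 fold change of -1 and 1; the members lie between -0.99 and 1.03, where the middle 50% of known bovine miRNAs span -0.78 to 0.42.

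As a share of all counts in a library, with no correction for composition, the family lay higher in both libraries of bulls. It took 0.433% and 0.420% of all counts from steers, against 0.766% and 0.774% from bulls, where 95% Clopper-Pearson intervals reached at most 0.00672 percentage points to either side and cover counting error only. The means were 0.426% ± 0.00913 (SD, n = 2) and 0.770% ± 0.00595 (SD, n = 2), 1.81-fold higher in bulls. The exact permutation test (two-sided) gave p = 0.333, the smallest that 2 against 2 libraries allow. Without a correction for composition, the median log2 fold change over all sequences tested was -0.56, so most sequences lay higher in bulls on that scale. A few miRNAs filled much of each library, among them miR-143 and miR-10b, whose summed share was 45.8% and 33.8% in steers but 25.8% and 19.3% in bulls. With these 2 miRNAs left out of the total, the family took 0.799% and 0.635% in steers and 1.03% and 0.959% in bulls. On the TMM scale the summed family was at 5805 and 4344 CPM in steers and at 7887 and 5443 in bulls, and the groups overlapped. The mean was higher in bulls on all 3 scales, by amounts that differed with the denominator.

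The makeup of the family does not depend on the scaling between libraries. MiR-16a made up 33.1% and 32.1% of the family's counts in steers, against 26.8% and 24.0% in bulls. MiR-15a made up 8.02% and 9.06% in steers and 12.9% and 12.7% in bulls. The shares of miR-195 were 24.3% and 20.1% in steers and 24.9% and 26.1% in bulls, and those of miR-497 were 19.3%, 21.5%, 16.5% and 20.1% in the same order. Bulls thus had the larger share of miR-15a in both libraries. As the split between miR-16a and miR-16b is uncertain, their combined share is given as well, 47.7% and 48.7% in steers and 45.1% and 40.6% in bulls, a smaller gap than that of miR-16a alone.

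**Figure D3:**
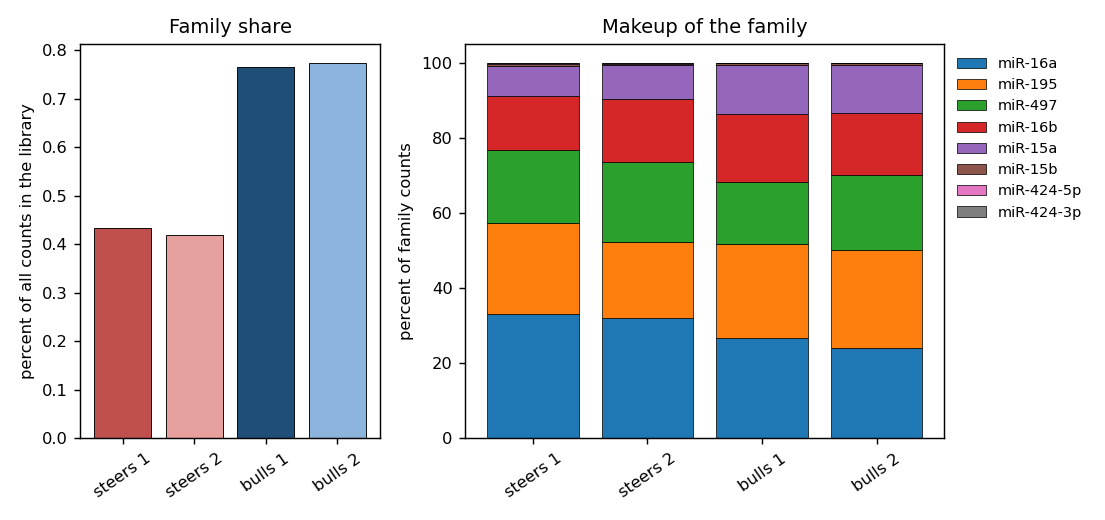
The left panel gives the percent of all counts in a library that fell on the 8 members, 0.433 and 0.420 in steers and 0.766 and 0.774 in bulls, and the right panel divides those counts among the members. MiR-15a takes a wider band and miR-16a a narrower one in both libraries of bulls.

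Ratios of 2 members inside a library were compared next, since they need no scaling, with a pseudocount of 0.5 on the log2 scale. Over 7 such ratios the exact permutation test could not give a p below 0.333, which is 0.389 after adjustment over the 7, so the values and their spread are given. The groups did not overlap in 6 of the 7 ratios, where 65.6% of all pairs of known bovine miRNAs tested had ratios that did not overlap.

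The ratio of miR-15a to miR-16a, which share a precursor transcript, was 0.242 and 0.283 in steers and 0.481 and 0.527 in bulls. On the log2 scale it was -1.93 ± 0.16 (SD, n = 2) for steers against -0.99 ± 0.09 for bulls, and the difference of -0.94 was larger than the spread within either group. It stayed between -1.06 and -0.83 with each library left out in turn. The ratio of miR-16b to miR-16a was 0.439 and 0.519 in steers and 0.681 and 0.690 in bulls, and both ratios with miR-16a carry the uncertainty of the shared reads named above. The ratio of miR-195 to miR-497 was 1.26 and 0.935 in steers and 1.51 and 1.30 in bulls. Here the gap between the groups was smaller than the gap between the 2 libraries of steers. The log2 difference of -0.37 became -0.15 without the second library of steers and -0.58 without the first.

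Apart from the arms of miR-424, the ratios that involve miR-15b differed least between the groups. MiR-15b reached 2.64% and 2.31% of the miR-16b count in steers and 2.74% and 2.91% in bulls. MiR-15a exceeded miR-15b 20.9-fold and 23.6-fold in steers and 25.8-fold and 26.3-fold in bulls. Differences on the log2 scale were -0.19 and -0.23 for these ratios. With 1 library left out they lay between -0.29 and -0.093 and between -0.32 and -0.14, smallest in size without the second library of steers for the former and without the first for the latter. MiR-424-5p went the other way, with 0.342% and 0.194% of the summed count of the other 6 members with the seed in steers, and 0.119% and 0.0808% in bulls. That log2 ratio was -8.59 ± 0.57 (SD, n = 2) for steers against -9.98 ± 0.39 for bulls, a difference of 1.38.

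The 2 arms of miR-424 separated the libraries by replicate number and not by group. MiR-424-5p exceeded miR-424-3p 11.8-fold in the first library of steers and 10.1-fold in the first of bulls, but 2.25-fold and 2.41-fold in the second ones. On the log2 scale the first libraries were 2.18 above the second ones, the largest such difference among the 32 known bovine precursors with both arms at a mean of at least 10 counts, whose median was 0.25. The first libraries lay above the second ones without overlap in 2 of these 32 precursors and below them in 6. The difference between steers and bulls in this ratio, 0.09, lay within the spread of either group. What the replicate numbers stand for is not given in the labels. The arms hold 38.1% (5p) and 52.4% (3p) of G and C, and the part of base composition in this result was not tested.

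**Figure D4:**
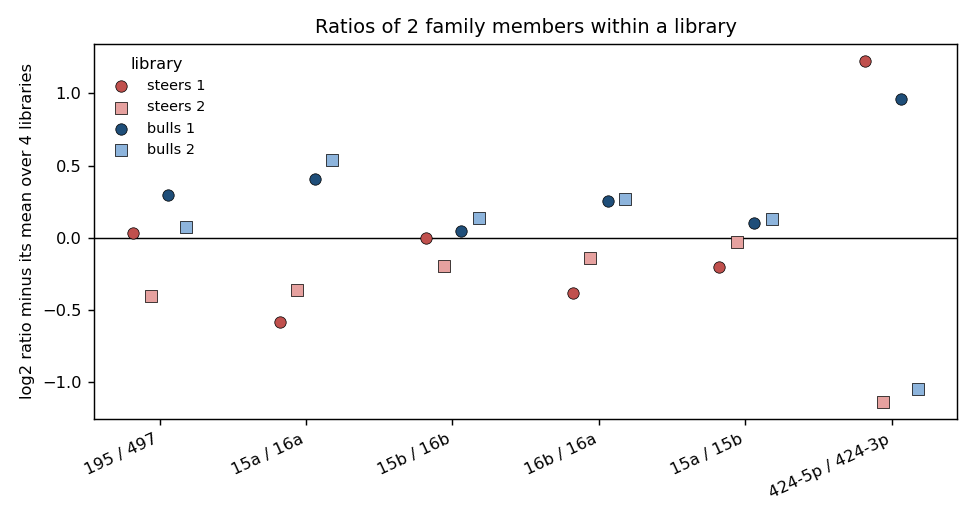
Each point is the log2 ratio of 2 members in 1 library, less the mean of that ratio over the 4 libraries, with circles for replicate 1 and squares for replicate 2. Bulls lie above steers in the first 5 ratios, most widely for miR-15a over miR-16a, whereas the ratio of the miR-424 arms splits circles from squares.

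Relatives of the seed were read beside the family. MiR-103 and miR-107, known in fat and liver for effects on insulin signaling, carry the AGCAGCA bases shifted by 1 position.
miR-103: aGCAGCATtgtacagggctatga
miR-107: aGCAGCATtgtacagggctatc
MiR-103 had 21671 and 22046 counts in steers, against 12731 and 11157 in bulls, which put the log2 fold change at 0.89 (edgeR, SE 0.48, adjusted p = 0.214). MiR-107 was at 0.70 (edgeR, SE 0.49, adjusted p = 0.352), at 1.22 without the first library of bulls and at 0.40 without the second. Both lay higher in steers without overlap and neither was called, although miR-103 was called without the first library of bulls, at 1.35 (edgeR, adjusted p = 0.0439), and in a fit of known bovine miRNAs alone, at 1.04 (edgeR, adjusted p = 0.0110). MiR-503-5p and miR-6519 had at most 2 counts in any library and did not pass the filter.

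Of the 5 listed miRNAs from the X-linked cluster around miR-424, 3 were tested. MiR-542-5p, with 18 and 17 counts in steers, against 4 and 3 in bulls, was called upregulated at 2.32 (edgeR, SE 0.74, adjusted p = 0.0189), a call that was lost with each of the 4 libraries left out in turn, with total counts and without the filter on low counts. DESeq2 (adjusted p = 0.0863) and limma-voom (adjusted p = 0.0840) did not make it either. MiR-450a was at -0.71 and miR-450b at 0.04, neither called, and the sign of miR-450b changed with total counts and without the filter on low counts. With 1 library left out miR-450a lay between -0.96 and -0.26. MiR-503-3p had between 2 and 7 counts per library.

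The known bovine miRNAs whose profile over the 4 libraries was most like the mean profile of the 7 members with the seed were miR-134, miR-193a-5p, miR-339b, miR-155 and let-7g. Likeness was the root mean square difference of centred log2 CPM, which was 0.0231 for miR-134, at only 1.28 to 2.78 CPM, and 0.0882 for let-7g. Its median over the 388 known bovine miRNAs outside the family was 0.410. Of the members with the seed, which themselves make up that mean profile, miR-16a was at 0.144, miR-497 at 0.156 and miR-16b at 0.157. MiR-195 was at 0.166, miR-15b at 0.212 and miR-15a at 0.345, whereas miR-424-5p, at 0.687, lay past the median.

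The tissue holds several cell types, so marker miRNAs are given beside the family. For skeletal muscle, 6 of 7 listed miRNAs were tested, all 6 with a log2 fold change below 0, and miR-1 (-1.42) and miR-499 (-1.76) were called downregulated. Their summed level was 2208 and 3377 CPM in steers and 5842 and 5394 in bulls, most of it miR-133a, and miR-208a had 0 counts in both libraries of steers. The 5 immune miRNAs were all below 0 as well, with miR-142-5p (-1.64) and miR-223 (-2.91) called, and summed to 905 and 658 CPM in steers and 2600 and 1365 in bulls, mainly miR-142-5p. Of the 3 erythroid miRNAs, miR-451 (-1.79) was called downregulated and miR-486 (1.47), which muscle also expresses, upregulated. The erythroid sum, almost wholly miR-486, was 3401 and 7360 CPM in steers and 2248 and 1757 in bulls. The endothelial pair summed to 14793 and 7863 CPM in steers and 21298 and 11456 in bulls, led by miR-126-5p, with miR-126-3p (-1.40) called downregulated. MiR-143 (1.18), the more abundant of the 2 stromal and smooth muscle miRNAs, was called upregulated although its groups overlapped, and miR-145 was at 0.64. The stromal sum was 335006 and 136100 CPM in steers and 144957 and 63534 in bulls. These 8 calls from edgeR's test fell to 1 without the first library of steers, 0 without the second, 4 without the first of bulls and 6 without the second. They fell to 0 with total counts and to 3 without the filter on low counts. RLE and upper-quartile factors each kept 6 of them. DESeq2, limma-voom and the fit of known bovine miRNAs alone each kept 7, all but miR-143. With the replicate number as a block all 8 were called, and miR-133a (-1.04), miR-208b (-1.04) and miR-150 (-1.14) were called too. The fit of known miRNAs alone also called miR-144 (-1.79) and miR-150 (-1.01). With 1 library left out, miR-143 ranged from 0.42 without the first library of steers to 2.09 without the first of bulls, and miR-486 from 0.84 without the second library of steers to 1.97 without the first. MiR-142-5p was at -0.85 and miR-126-3p at -0.67 without the first library of bulls, and they otherwise reached -2.09 and -1.82. The immune, muscle and endothelial sums were thus lower in steers on average. So were miR-15a, miR-15b, miR-16a, miR-16b, miR-195 and miR-497, miR-16a by little, whereas both arms of miR-424 were higher. The part of these cell types in the family's values was not tested.

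In the mRNA pools, the tissue label was checked against adipocyte genes. CIDEC, a lipid droplet protein, had 9931 counts in steers against 7501 in bulls, ADIPOQ, which encodes adiponectin, 4513 and 6651, and PLIN1, a droplet coat protein, 4499 and 5386. None of the 6 adipocyte genes was at 0, and together they had 31977 and 30518 counts. LPL, a lipase that frees fatty acids from lipoproteins, had 7811 and 2253 counts (log2 fold change 1.67) and FABP4, a fatty acid carrier, 3951 and 7574 (-1.06), so members of the list lay past 2-fold in opposite directions. The 6 skeletal muscle genes, led by ACTA1, had 25550 and 34991 counts and did not move together, with 3 of the 6 above 0, from MYH7, a slow myosin, at -2.23 to MYH1, a fast myosin, at 1.15. The 5 myeloid genes, led by CSF1R, had 17223 and 33112 counts, and the 4 endothelial genes, led by PECAM1, had 8862 and 8215. These are raw sums of pools that differ in depth, and after size factors the endothelial sum was 8495 and 8570 and the adipocyte sum 30651 and 31838, with bulls then higher in both. The T lymphocyte genes had 119 and 520 counts over 4 genes, led by CD3E. The erythroid genes had 37 and 7 over 3 genes, led by HBB, with ALAS2 at 0. The 4 matrix genes, led by COL3A1 (1.27), had 807078 and 373502, and among them DCN was at 0.04 and PDGFRA at -0.48. The part of these cell types in the values below was not tested.

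A list of 28 reported targets of the family, written from general knowledge, was read in the mRNA pools. With 1 library per group there is no replicate check and no test, so folds are given with 95% Clopper-Pearson intervals that cover counting error only. Counts were scaled by median-of-ratios size factors, and genes with at least 10 counts over both pools were used. Of the 28 targets 26 reached that count, and 0 were over 2-fold higher and 4 over 2-fold lower in steers, CDC25A, CHEK1, HMGA1 and MYB. Over all 14540 genes, 6.44% were over 2-fold higher and 11.4% over 2-fold lower. The median log2 fold change of the targets was -0.07, against 0.01 for all genes, with 10 of the 26 above 0 and 16 below. Among all genes 7394 were above 0 and 7146 below. Between 2 pools, 17.8% of all genes were past 2-fold in one direction or the other.

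Among the cell cycle targets, CCND3, a D-type cyclin that drives entry into the cycle, had 2637 counts in steers against 3321 in bulls, which put its log2 fold change at -0.45 (interval from -0.53 up to -0.38). The other D-type cyclins were at 0.44 for CCND1 (0.23 to 0.64), from 480 and 326 counts, and at 0.57 for CCND2 (0.22 to 0.94), from 172 and 106. CDC25A, a phosphatase that activates cyclin-dependent kinases, had 10 and 24 counts and lay at -1.34 (-2.61 to -0.27). CHEK1, a checkpoint kinase, had 4 and 16 counts and was at -2.00 (-4.16 to -0.49). The low counts of CDC25A and CHEK1 leave wide intervals. WEE1, a kinase that delays mitosis, had 138 and 65 counts and the highest value of the list, 0.96 (0.53 to 1.41). CDK6, a partner of the D-type cyclins, was at -0.91 (-1.80 to -0.10) from 20 and 35 counts. The median of the 9 cell cycle targets was -0.45.

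Among the 3 survival genes none was past 2-fold. MCL1 was at -0.36 (-0.45 to -0.26) from 1657 and 1949 counts, BCL2L2 at 0.07 (-0.09 to 0.23) from 699 and 612, and BCL2, the best known target of miR-15a and miR-16, at -0.24 (-0.85 to 0.36) from 46 and 50. The intervals of BCL2L2 and BCL2 span 0, and that of MCL1 does not.

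Of the 7 growth factors, receptors and kinases, the receptor FGFR1 had the most counts, 7422 in steers and 5400 in bulls, with its log2 fold change at 0.34 (0.29 to 0.39). KDR, a receptor for VEGFA on endothelium, was at -0.09 (-0.25 to 0.06) from 676 and 663 counts, and the insulin receptor gene INSR at -0.03 (-0.23 to 0.16) from 448 and 421. VEGFA, a growth factor for blood vessels, was furthest from 0 in this list, at -0.98 (-1.26 to -0.70) from 165 and 299 counts. With total counts in place of size factors VEGFA was at -1.22 and CDK6 at -1.15, and 6 targets were then past 2-fold lower. In TGF-beta and activin signaling, the transcription factor SMAD3 was at -0.02 (-0.24 to 0.21) from 352 and 327 counts. The inhibitor SMAD7 was at 0.45 (0.06 to 0.86) from 136 and 91, and the receptor ACVR2A was at -0.12 (-0.51 to 0.27) from 113 counts in each pool.

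In the remaining targets, RECK, an inhibitor of matrix proteases, had 1091 and 713 counts and lay at 0.49 (0.35 to 0.63). BMI1, a Polycomb protein, was at 0.30 (-0.08 to 0.69) from 137 and 102 counts. HMGA1, a chromatin protein, had 45 and 112 counts and was at -1.43 (-1.97 to -0.93), the one target past 2-fold with at least 50 counts. MYB, a transcription factor of blood cell progenitors, had 2 counts in steers against 11 in bulls and lay at -2.32 (-5.80 to -0.39). With a prior of 5 counts in place of 0.5, MYB was at -1.31. WNT3A had 4 and 0 counts and DLK1, a preadipocyte protein, 0 and 5, so both stayed below the limit of 10.

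**Figure D5:**
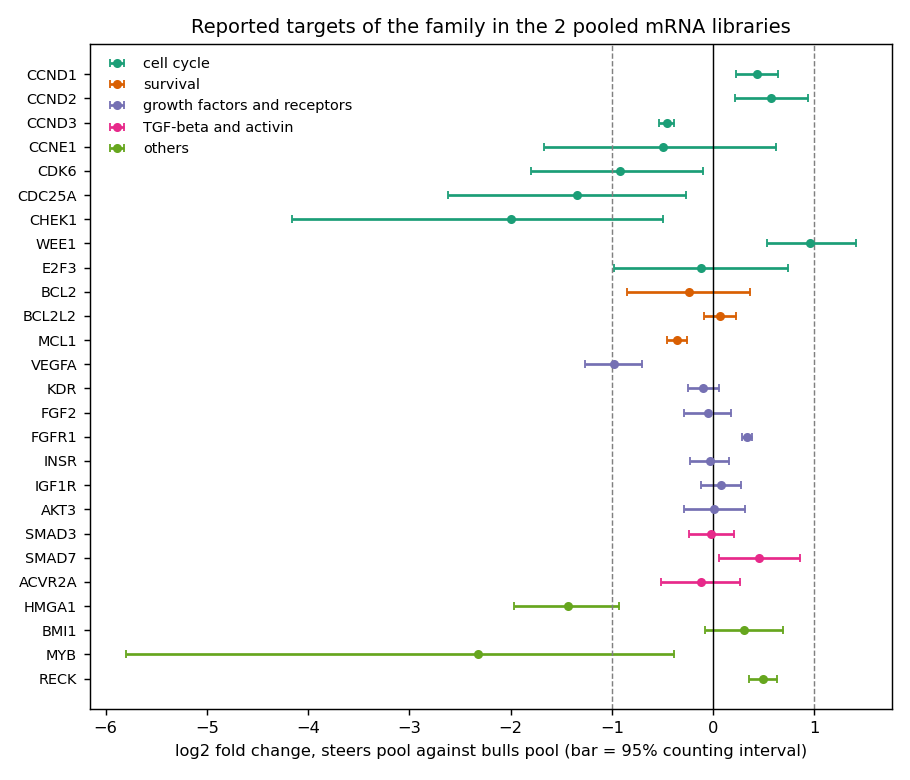
Points give the log2 fold change of 26 targets between the pool of steers and the pool of bulls, colored by role, with 95% counting intervals as bars and dashed lines at 2-fold. The points past -1 are CDC25A, CHEK1, HMGA1 and MYB, and no point is past 1.

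Genes that make and load miRNAs were read in the same way. SMC4, the host of miR-15b and miR-16b, had 60 counts in steers against 52 in bulls and lay at 0.08 (-0.48 to 0.65), where both miRNAs had values below 0. With total counts in place of size factors SMC4 was at -0.16. Of the 8 genes of miRNA processing that were read, 7 were above 0 and none was past 2-fold, with a median of 0.21. Among all 14540 genes 7394 were above 0. Scaling by total counts instead put the median of all genes at -0.23 and left 4 of the 8 above 0, and among the genes with values printed here it turned BCL2L2, SMC4, DICER1, AGO2 and DCN negative. XPO5, which exports miRNA precursors from the nucleus, had 718 and 419 counts and lay at 0.65 (0.48 to 0.83). DGCR8, the partner of DROSHA in the first cut, had 988 and 597 counts and was at 0.60 (0.46 to 0.75). DICER1, which makes the second cut, was at 0.13 (-0.16 to 0.43) from 209 and 175 counts, and AGO2, an Argonaute protein, at 0.09 (-0.17 to 0.36) from 253 and 218.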

How the data were processed

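Per the methods, the authors trimmed the HiSeq reads, dropped those under 15 bases, and used BWA to map the rest to miRBase and to the cattle genome. Counts per named miRNA sequence were used as deposited. The submitters' notes list the human build GRCh37.p13, and its use is not explained there. The authors aligned Ion Proton mRNA reads with MapSplice and deposited raw counts per gene. How multiply matching reads were counted is not given in the sources used here. Libraries were grouped by title. All sequences were fitted in edgeR 4.0.16 (R 4.3.3) with filterByExpr, TMM, glmQLFit and glmQLFTest on group. Each SE was taken from the log2 fold change and the root of its F statistic. For mRNA, size factors were 1.04 and 0.959, with a prior of 0.5 counts. Ratios used scipy 1.17.1 and numpy 2.4.6. The edgeR step was tested on simulated data. Of sequences changed 2-fold there, 4 of 187 were called, and of those changed 4-fold, 164 of 194. Unchanged sequences called were 0 and 10 in these runs. Alternatives were other scalings and filters, DESeq2 1.42.0, limma-voom (limma 3.58.1), known miRNAs alone, miR-16a and miR-16b summed, a replicate block, and libraries left out. Mature sequences came from the supplementary table of known miRNAs. Named were all members, neighbours, relatives and markers by list, and for targets the 3 with most counts per role and those past 2-fold; XPO5, DGCR8, DICER1, AGO2, WEE1, CDK6, VEGFA, LPL, FABP4, MYH7, MYH1, DCN and PDGFRA were named after their values were seen. Members and lists were chosen with earlier results of these data known. Transcripts spanning miR-15a, miR-195 and miR-424 and the gene AGO4 were not analysed here, and 1 list of marker genes is not reported here.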

Additional observations from a re-analysis of the deposited data

Results flagged for a closer look

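The family's human, mouse and rat homologs have rows of their own, which held a few reads. These rows did not pass the filter on low counts and were left out of the edgeR fit behind the calls above. Among 11 such rows, mmu-miR-195b reached 7 counts in the first library of bulls, above the 3 counts that a count of 0 allows, with 5 in the second and 1 in each library of steers. The other 10 rows had at most 3 counts in any library.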

How the results depend on the processing

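With 2 libraries per group each p-value rests on the spread between few libraries, and depth limits miR-424-3p as well, at 7 to 32 counts per library. Of the members, miR-16a reversed, to 0.029 with RLE factors and with DESeq2, 0.14 with upper-quartile factors and 0.10 with known bovine miRNAs alone. The median shift over all sequences was -0.48 with total counts and 0.18 with upper-quartile factors, and the members shifted by about as much. In the fit of known bovine miRNAs alone the median shift was 0.14 over those miRNAs and 0.14 over the members. In that last fit miR-15a had an adjusted p of 0.0195 from edgeR at a log2 fold change of -0.84, short of the fold threshold; over all alternatives its adjusted p lay between 0.0195 and 0.837. Without single libraries, miR-15a ranged from -1.28 to -0.49, miR-15b from -1.05 to -0.24, miR-16b from -0.91 to -0.013, miR-195 from -0.91 to -0.12, miR-424-3p from 0.31 to 1.499, miR-16a from -0.38 to 0.53, miR-497 from -0.37 to 0.10 and miR-424-5p from 0.33 to 1.87, the values nearest 0 of miR-15a, miR-15b, miR-16b and miR-195 all without the first library of bulls, and between 0 and 1 members were called. For a group left with 1 library, that library was assumed to vary like the other group. Beside those of miR-16a and miR-497, the ranges that crossed 0 were those of miR-450b (-0.38 to 0.55), miR-155 (-0.81 to 0.12), miR-142-3p (-1.18 to 0.15), miR-126-5p (-0.88 to 0.32), miR-145 (-0.54 to 1.32) and the log2 ratio of the miR-424 arms (-1.09 to 1.27). MiR-450b was also at -0.44 with total counts and -0.039 without a filter.

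Over all sequences, 76 were called up and 76 down, 7.08% each. The calls up were 1 with total counts (0.0932%), 34 without a filter (0.409%) and 39 in a fit of known miRNAs alone (9.85%). In the same order those down were 0 (0%), 36 (0.434%) and 36 (9.09%). At an unadjusted p under 0.05 total counts gave 298 sequences. Upper-quartile factors gave 66.0% of calls up, RLE factors 57.1%. Calls up and down were 47 and 14 without the first library of steers, 20 and 6 without its second library, 110 and 41 without the first library of bulls and 54 and 45 without its second, from 1.69% to 8.57% up and from 0.507% to 3.72% down. With the replicate number as a block, 12.4% were called up and 11.1% down, and 0 members were called, but miR-133a (-1.04), miR-208b (-1.04) and miR-150 (-1.14) were, with adjusted p of 0.0209, 0.0327 and 0.0128 from edgeR; the labels do not say that a number marks a shared source, and deviations of same-numbered libraries correlated at 0.304. Targets past 2-fold higher were 1 with a limit of 1 count, those lower were 1 with a limit of 50, and SMC4 was at -0.16 with total counts. The causes were not tested.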
